A study of Bos taurus with 15 samples.

Results

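Chemokine and chemokine receptor transcripts were followed in the subcutaneous fat of dairy cows around calving. The genes were all entries, present in each of the 6 comparison tables, whose name begins with CCL, CXCL, CX3CL, XCL, CCR, CXCR, CX3CR, XCR or ACKR followed by a digit, with CCL21 left out. This rule used names only and gave 49 of 13896 genes. By role they were 4 neutrophil-recruiting CXC ligands, 3 interferon-induced CXC ligands, 6 other CXC, CX3C and XC ligands, 9 inflammatory CC ligands, 5 homeostatic CC ligands, 10 CC receptors, 8 CXC, CX3C and XC receptors and 4 atypical receptors.

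RNA sequencing was done on 15 libraries of dewlap fat from Holstein cows in their first lactation, 3 in each of 5 groups. The -4 wkpp group (weeks peripartum) was sampled 1 month before calving, before the diets began. The labels name the other groups by diet, low-energy (LE) or high-energy (HE), begun before calving, each at 1 and 16 wkpp. The study names its groups by negative energy balance at 1 wkpp, as severe (SNEB) or as moderate (MNEB). Libraries labelled LE are called SNEB here and those labelled HE are called MNEB, because the study's list of sequenced samples, numbered like the sample titles, gives these statuses under the same numbers. The cows sequenced were those with the most extreme energy balance at 1 wkpp, so the groups stand for extremes of the herd, and diet and energy status cannot be told apart. Each animal was biopsied at all 3 times, so libraries of different times may come from the same cows, while the fits treated them as independent.

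Chemokines are small secreted proteins that guide leukocytes along concentration gradients by binding G protein-coupled receptors. Some are made constantly and place resident cells, while others are induced by inflammation or interferon and recruit monocytes, eosinophils, neutrophils or T cells. Atypical receptors bind chemokines without activating G proteins, and take them up or carry them across endothelium, which shapes the gradient. In adipose tissue the system is best known for the recruitment of monocytes that become tissue macrophages.

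The tables gave mean counts per comparison, and the whole reads of each library were recovered from them. Libraries of a group are named a, b and c from the deepest to the shallowest and are not tied to a cow. Exonic gene reads ranged from 1819005 to 12753705 per library, and 4 MNEB libraries (b and c at each time) had fewer than 3000000. In the study's alignment summary every MNEB sample had a smaller share of uniquely aligned reads than every other sample, at similar totals sequenced, so alignment quality and the MNEB groups cannot be told apart. All 49 genes had exonic reads, 23 of them in all 15 libraries, and their mean normalised counts were at least 100 for 11 genes, 10 to 100 for 19 and below 10 for 19. A normalised count is the exonic read count divided by the library's size factor, with no correction for gene length, so it gives no order of level between genes.

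Marker lists of other cell types differed between the groups. The summed normalised count of 8 measured adipocyte markers ran from 46371.5 to 54229 at -4 wkpp, from 16767.7 to 24920.3 in MNEB 1 wkpp and from 38562.1 to 41756.4 in SNEB 1 wkpp, with no overlap among these groups. Between -4 wkpp and MNEB 1 wkpp 2 of the 8 were called, and the part of adipocyte RNA in the member differences of that comparison was not tested. At 16 wkpp the sums overlapped, from 8752 to 28668.7 in MNEB and from 23324.8 to 31047.1 in SNEB. The 8 skeletal muscle markers summed to between 1172.9 and 4083.6 in the 6 MNEB libraries and to between 85.7 and 354.4 in the other 9, with no overlap, so muscle RNA and the MNEB groups cannot be told apart. The 10 measured macrophage markers summed to between 2943.5 and 3951.8 in MNEB and between 22822.6 and 29719.1 in SNEB at 16 wkpp. In bulk tissue, fewer cells of a type and less RNA per cell cannot be told apart.

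**Figure D1:**
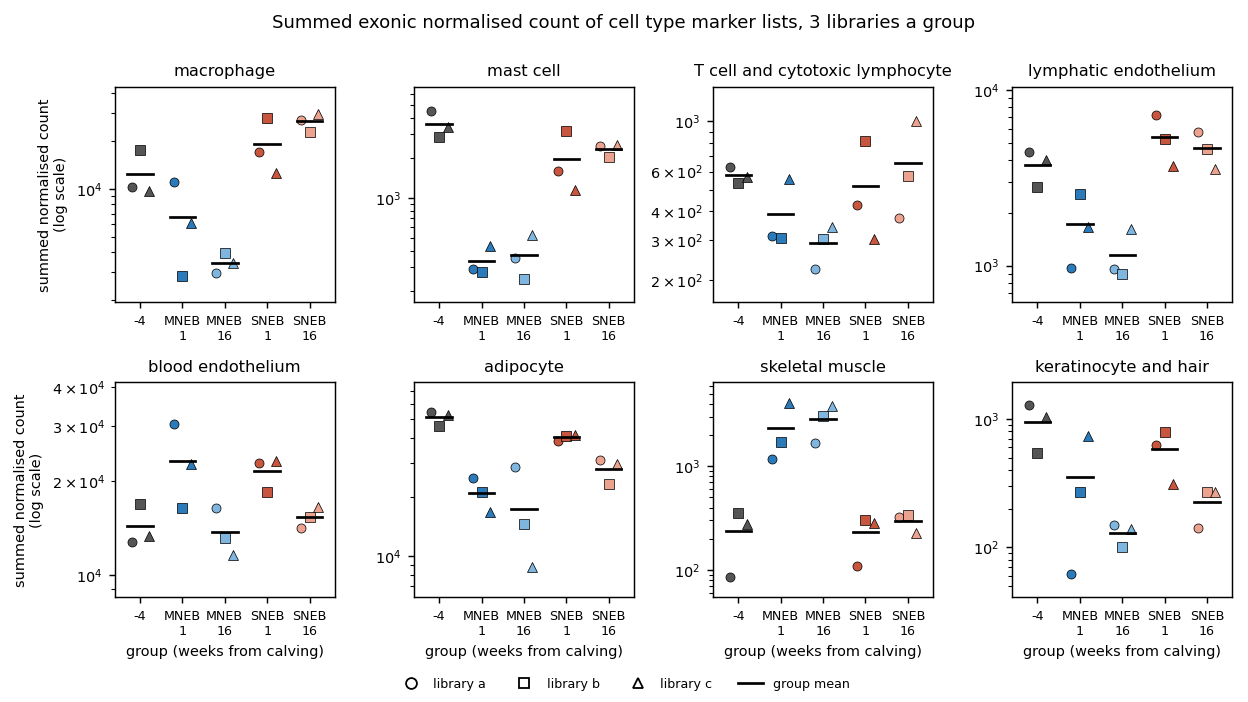
Summed exonic normalised count (log scale) of 8 cell type marker lists in the 15 libraries, by group on the x axis, with a symbol per library and a bar at the group mean. The 3 MNEB 16 wkpp libraries lie between 2943.5 and 3951.8 for macrophage markers, below all SNEB libraries, and the 6 MNEB libraries lie above all others for skeletal muscle markers.

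The group with the lowest mean normalised count was MNEB 1 wkpp for the scavenging receptors ACKR2, ACKR3 and ACKR4 and for the ligands CXCL12, CXCL14, CCL24 and CCL26. It was MNEB 16 wkpp for the endothelial receptor ACKR1, the ligand CCL14 and the myeloid receptor CCR1, and -4 wkpp for the neutrophil attractant CXCL3. ACKR3, for example, averaged 2443 ± 860.1 (SD, n = 3) at -4 wkpp, 493 ± 30.3 in MNEB 1 wkpp, 737 ± 117 in MNEB 16 wkpp, 1581 ± 769 in SNEB 1 wkpp and 2808 ± 1329 in SNEB 16 wkpp. Each library of SNEB 16 wkpp exceeded each library of MNEB 16 wkpp for all 4 atypical receptors. The share of all genes separated in this way was not counted. By limma, 35% of all genes had an unadjusted exonic p below 0.05 in that comparison.

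Each comparison was tested with limma, and a gene was called when its Benjamini-Hochberg adjusted p, over all genes tested, was below 0.01 on exonic reads and again on reads of the entire gene, with the same sign. ACKR3 was the only member called, with higher expression in SNEB than in MNEB cows at 16 wkpp, which makes 1 of 43 members tested against 2.97% of all genes in that comparison. No member was called in any other comparison. Between -4 wkpp and MNEB 1 wkpp this was 0 of 41 members against 0.572% of all genes, and between -4 wkpp and SNEB 1 wkpp it was 0 of 42 against 0.0259%. Called genes were also 0% of all genes in MNEB cows from 1 to 16 wkpp, in SNEB cows from 1 to 16 wkpp and between SNEB and MNEB at 1 wkpp.

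On exonic reads alone, 7 of 41 members had an adjusted p below 0.01 between -4 wkpp and MNEB 1 wkpp, all higher at -4 wkpp, beside 13.7% of all genes. They were ACKR2, ACKR3, ACKR4, CCL24, CCL26, CXCL12 and CXCL14. Between SNEB and MNEB at 16 wkpp, ACKR1 and ACKR3 passed on exonic reads, 2 of 43 members beside 9.05% of all genes. Without each library in turn between 1 and 4 members passed, beside between 438 and 718 of all genes. CCL14 alone passed without MNEB 16 wkpp library a (545 of all genes) and ACKR1 alone without MNEB library b or c (677 and 472 of all genes). Without SNEB library a or b 3 passed (438 and 638 of all genes), and without SNEB library c 4 passed (718 of all genes). None passed on exonic reads in the other 4 comparisons, where the share over all genes was 0.527% for -4 wkpp against SNEB 1 wkpp, 0.825% for SNEB against MNEB at 1 wkpp and 0% for both changes from 1 to 16 wkpp. The members' shares lay near or below the background of their comparisons.

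At an unadjusted exonic p below 0.05, the members numbered 14 of 41 between -4 wkpp and MNEB 1 wkpp (all genes 36.9%), 4 of 43 between -4 wkpp and SNEB 1 wkpp (13.9%), 7 of 34 in MNEB cows from 1 to 16 wkpp (11.6%) and 5 of 44 in SNEB cows over the same weeks (6.93%). Between SNEB and MNEB they numbered 7 of 39 at 1 wkpp (29.9%) and 16 of 43 at 16 wkpp (35%). Whether the change from 1 to 16 wkpp differed between SNEB and MNEB was tested as an interaction. It was the log2 difference of 1 over 16 wkpp in SNEB minus that in MNEB. In it limma called 0 of 44 members tested on both kinds of reads and 0% of all genes. At an unadjusted exonic p below 0.05 there were 3 of 45 members, beside 4.55% of all genes.

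The exonic difference was positive, meaning higher at -4 wkpp, for 33 of 41 members against MNEB 1 wkpp, with a median of 1.04 on the log2 scale beside -0.02 over all genes. Against SNEB 1 wkpp it was positive for 28 of 43, with a median of 0.35 beside -0.01. Between SNEB and MNEB it was positive, meaning higher in SNEB, for 27 of 39 members at 1 wkpp with a median of 0.68 beside 0.0, and for 35 of 43 at 16 wkpp with a median of 0.98 beside 0.01. From 1 to 16 wkpp, 17 of 34 were higher at 1 wkpp in MNEB cows, and 15 of 44 in SNEB cows with a median of -0.37 beside -0.02. The comparisons share libraries, so these counts are not independent of each other, and members outside the tested ones had too few reads.

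**Figure D2:**
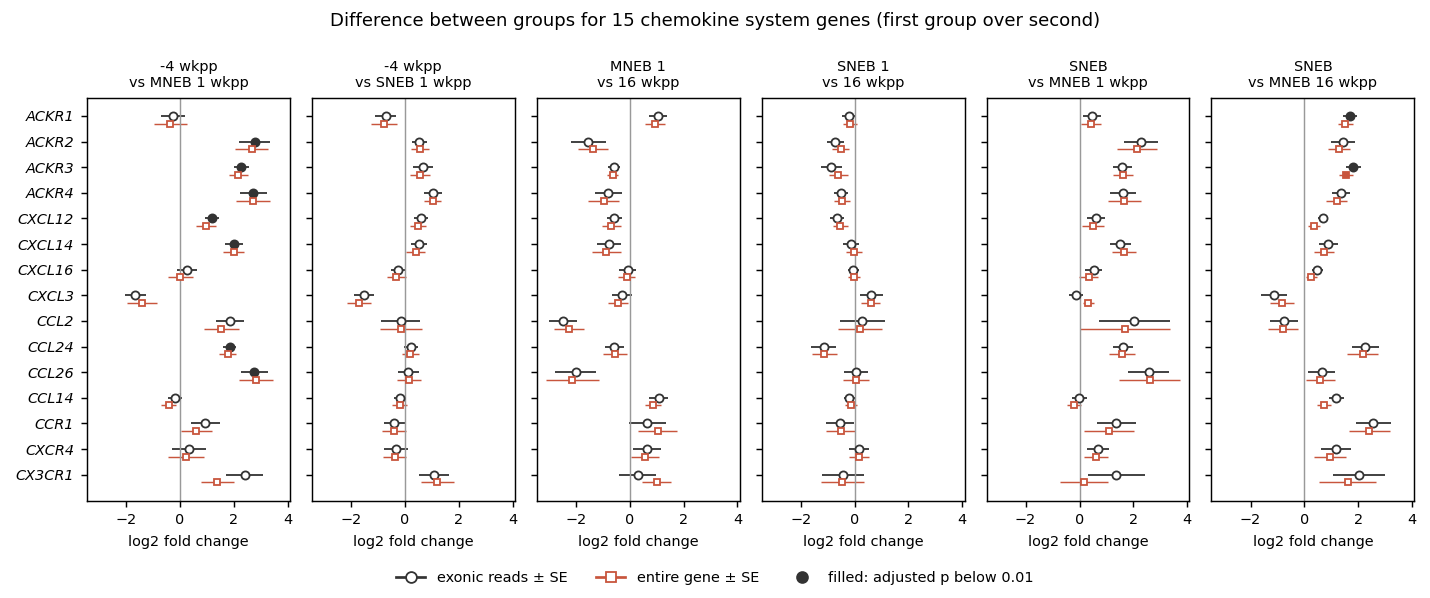
Log2 fold change with its SE, first group over second, for 15 chemokine system genes in the 6 comparisons, from exonic reads (circles) and reads of the entire gene (squares). Filled symbols mark an adjusted p below 0.01. Both symbols are filled for ACKR3 alone, in SNEB against MNEB at 16 wkpp, and 7 circles are filled for -4 wkpp against MNEB 1 wkpp.

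Among the atypical receptors, ACKR3, which takes up CXCL12 and CXCL11, separated SNEB from MNEB cows at 16 wkpp. Its exonic normalised counts in libraries a, b and c were 871, 681 and 658 in MNEB and 4339, 1939.5 and 2147 in SNEB. The lowest SNEB library was above the highest MNEB library, and SNEB library a was more than 2-fold above both others of its group. On reads of the entire gene the counts were 1228, 999.9 and 1164 in MNEB and 4734, 2451 and 3178 in SNEB, again without overlap. The log2 fold change was 1.82 (SE 0.29, adjusted p = 0.00278) on exonic reads and 1.55 (SE 0.26, adjusted p = 0.00903) on the entire gene by limma. Leaving out any of the 6 libraries in turn moved the adjusted p of the entire gene to between 0.0124 and 0.039, so that the call was lost each time, with exonic log2 fold changes from 1.48 to 2.04. The exonic adjusted p ran from 0.00392 to 0.0142 and was above 0.01 without any 1 of the MNEB libraries. Without both MNEB libraries under 3000000 reads it was 1.59, from a single MNEB library, and the adjusted p of 0.0842 and 0.149 then assume that this library varies like the SNEB group.

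At the earlier times ACKR3 stood at 2200.4, 3398 and 1730.2 at -4 wkpp, at 501, 459 and 518 in MNEB 1 wkpp and at 1358, 2437 and 948 in SNEB 1 wkpp. The MNEB 1 wkpp libraries were the lowest of all 15 and differed little among themselves. Against them the log2 fold change was 2.27 (SE 0.28) at -4 wkpp, with an adjusted p of 0.000388 on exonic reads and 0.0172 on the entire gene by limma. It was 1.59 (SE 0.34) in SNEB 1 wkpp, with adjusted p of 0.0192 and 0.0929. The -4 wkpp and SNEB 1 wkpp libraries overlapped, with 0.68 (SE 0.36, adjusted p = 0.452). The exonic difference between -4 wkpp and MNEB 1 wkpp kept its adjusted p below 0.01 without each library in turn, with log2 fold changes from 1.99 to 2.50.

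ACKR2, a scavenger of inflammatory CC chemokines found on lymphatic endothelium, had normalised counts of 90.3, 114 and 89.6 at -4 wkpp. In MNEB 1 wkpp they were 15.6, 10.8 and 11.0, from 15, 4 and 3 exonic reads, so this low level rested on few reads. The groups did not overlap, with a log2 fold change of 2.78 (SE 0.58) and limma adjusted p of 0.00559 on exonic reads and 0.045 on the entire gene. In the 6 fits that each left out a library, this exonic p lay above 0.01 every time, from 0.0115 to 0.023. ACKR2 counts were 57.7, 18 and 40.6 in MNEB 16 wkpp, 76.2, 85.6 and 45.1 in SNEB 1 wkpp and 147, 91.3 and 92.9 in SNEB 16 wkpp. SNEB libraries lay above MNEB libraries at both times, by 2.27 (SE 0.63, adjusted p = 0.0444) at 1 wkpp and 1.44 (SE 0.45, adjusted p = 0.047) at 16 wkpp on the log2 scale.

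ACKR4, a scavenger of CCL19 and CCL25, showed counts of 415, 206 and 375 at -4 wkpp and of 28.2, 89.1 and 91.8 in MNEB 1 wkpp. The difference of 2.73 (SE 0.51) had limma adjusted p of 0.00316 and 0.0464 on exonic and entire gene reads. Without -4 wkpp library a or c, or MNEB 1 wkpp library a, the exonic p was no longer below 0.01, and the highest was 0.0199. The log2 fold change was 1.82 without MNEB 1 wkpp library a, the lowest of its group. Counts were 70.4, 79.7 and 125 in MNEB 16 wkpp, 206, 129 and 127 in SNEB 1 wkpp and 205, 170 and 281 in SNEB 16 wkpp. SNEB exceeded MNEB in every library at both times, with log2 fold changes of 1.63 (SE 0.48, adjusted p = 0.0544) and 1.36 (SE 0.32, adjusted p = 0.0163). Between -4 wkpp and SNEB 1 wkpp the difference was 1.06 (SE 0.33, adjusted p = 0.17) and the values overlapped.

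ACKR1, which carries inflammatory chemokines across venular endothelium and also binds them on red cells, followed another order. It had counts of 388, 1116 and 369 at -4 wkpp and of 915, 389 and 768 in MNEB 1 wkpp, with full overlap and a log2 fold change of -0.26 (SE 0.45, limma adjusted p = 0.714). At 16 wkpp the MNEB libraries had 338, 265 and 347 and the SNEB libraries 1105, 1321 and 739. The SNEB values were all higher, by 1.69 (SE 0.25), with adjusted p of 0.00201 on exonic reads and 0.0121 on the entire gene, just outside the call. The exonic p stayed below 0.01 in 5 of 6 fits without a library and was 0.0129 without MNEB 16 wkpp library a. SNEB 1 wkpp libraries had 832, 1192 and 736. Within MNEB cows ACKR1 was higher at 1 than at 16 wkpp, without overlap on exonic reads (1.04, SE 0.33, adjusted p = 0.32). On the entire gene MNEB 1 wkpp library b, at 409, lay below MNEB 16 wkpp library c, at 435. The ACKR1 interaction, 1 over 16 wkpp in SNEB minus that in MNEB, was -1.25 (SE 0.45, adjusted p = 0.982).

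Cell type markers also differed in the comparisons of the atypical receptors. All 10 measured macrophage markers were higher in SNEB than in MNEB at 16 wkpp, with 3 called and a median of 2.95. Of the 6 measured lymphatic endothelium markers, 5 were higher in SNEB at 16 wkpp, 2 of them called, and the list summed to between 892.2 and 1613.9 in MNEB against between 3561.8 and 5772.5 in SNEB. The same list summed to between 2786.8 and 4410.7 at -4 wkpp and between 967.5 and 2567.9 in MNEB 1 wkpp. Compared with SNEB 1 wkpp, 0 of 10 macrophage and 1 of 6 lymphatic markers were higher at -4 wkpp, beside 3 of 4 atypical receptors. Other lists of that comparison went both ways, with 4 of 4 mast cell, 5 of 8 adipocyte, 10 of 15 T cell and 0 of 8 blood endothelium markers higher at -4 wkpp. The 8 measured blood endothelium markers summed to between 11573.7 and 16391.1 in MNEB and between 14165.3 and 16504.3 in SNEB at 16 wkpp, and the 5 erythrocyte markers to between 20.5 and 83.9 and between 14.5 and 19.4. No measured marker of these lists was at 0 in all libraries, and the part of cell composition in the receptor differences was not tested.

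**Figure D3:**
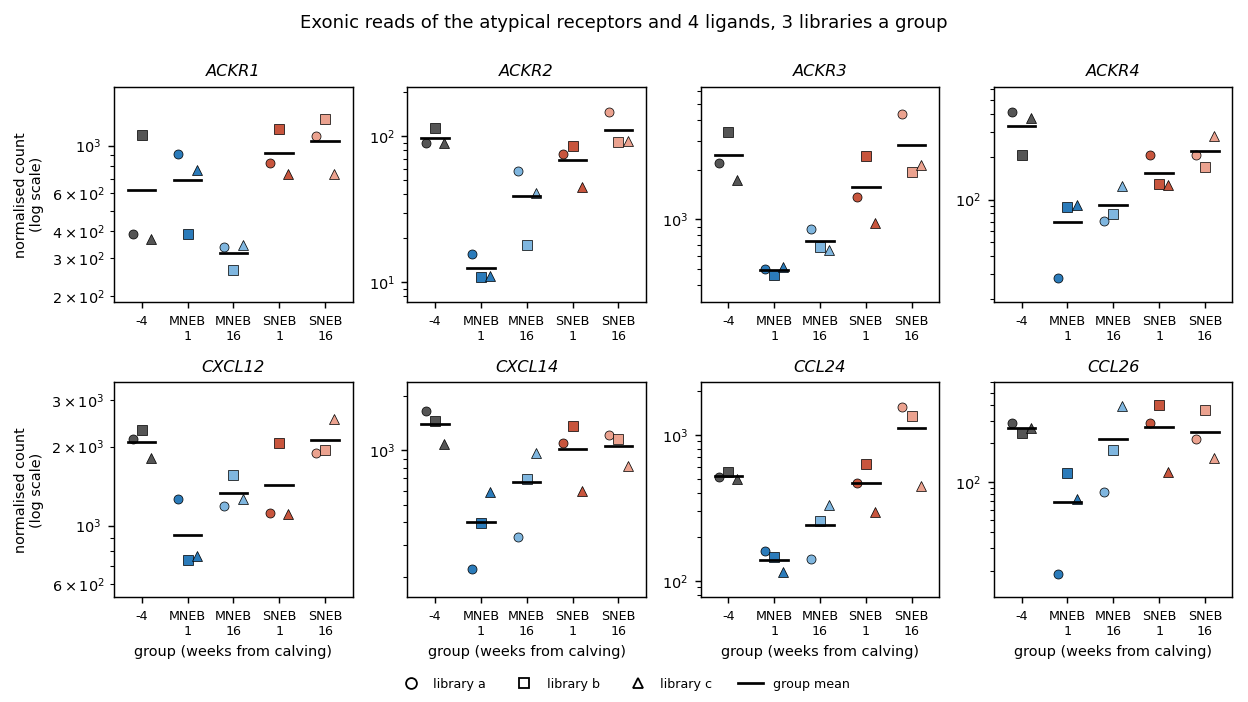
Exonic normalised count (log scale) of the 4 atypical receptors and of CXCL12, CXCL14, CCL24 and CCL26 in the 15 libraries, by group on the x axis, with a symbol per library and a bar at the group mean. For ACKR3 the 3 MNEB 1 wkpp libraries lie between 459 and 518 and the 3 MNEB 16 wkpp libraries between 658 and 871, below all libraries of the other groups.

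Among the other CXC, CX3C and XC ligands, CXCL12, the stromal ligand of CXCR4 and ACKR3, had normalised counts of 2138, 2308 and 1805 at -4 wkpp and of 1264, 737 and 768 in MNEB 1 wkpp. The groups did not overlap on exonic reads, and the log2 fold change of 1.20 (SE 0.26) had a limma adjusted p of 0.00645. On the entire gene it was 0.96 with an adjusted p of 0.182. There the groups overlapped, -4 wkpp library c at 1654 lying below MNEB 1 wkpp library a at 1821. Of the 6 fits that left out a library, 1 kept the exonic p below 0.01, the one without MNEB 1 wkpp library a, and against library a alone, without both shallow MNEB libraries, the log2 fold change was 0.70. MNEB 16 wkpp libraries had 1188, 1556 and 1267, SNEB 1 wkpp libraries 1120, 2060.2 and 1104, and SNEB 16 wkpp libraries 1899.6, 1939.5 and 2540.4. At 16 wkpp SNEB lay above MNEB in every library on exonic reads, by 0.68 (SE 0.19, adjusted p = 0.0331). On the entire gene the difference was 0.34 (adjusted p = 0.361) and the groups overlapped, SNEB library a at 1845 lying below MNEB library b at 2039.

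CXCL14, a ligand made by epithelia, fibroblasts and adipocytes, had counts of 1654, 1460.3 and 1092 at -4 wkpp. MNEB 1 wkpp libraries had 221, 397 and 591, all lower, with a log2 fold change of 2.02 (SE 0.33) and limma adjusted p of 0.00153 and 0.0296 on exonic and entire gene reads. The exonic p stayed below 0.01 without each library in turn. SNEB 1 wkpp libraries had 1092, 1365 and 597, above the MNEB libraries by 1.52 (SE 0.40, adjusted p = 0.0387). At 16 wkpp the counts were 334, 697 and 964 in MNEB and 1215, 1159.9 and 816 in SNEB, which overlapped (0.88, SE 0.35, adjusted p = 0.107). All 4 tested members of the other CXC, CX3C and XC ligands, CXCL13 and CXCL16 being the other two, had positive differences at -4 wkpp against MNEB 1 wkpp, from 0.27 to 2.02, and in SNEB against MNEB at 16 wkpp, from 0.48 to 2.01. CXCL17 and XCL1 had 3 and 4 reads over all libraries.

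Among the inflammatory CC ligands, CCL24, which draws eosinophils through CCR3, had counts of 510.4, 552 and 501 at -4 wkpp and of 160, 146 and 114 in MNEB 1 wkpp. The libraries of each group lay close together and far from the other, with a log2 fold change of 1.85 (SE 0.25) and limma adjusted p of 0.00066 and 0.0229. The exonic p stayed below 0.01 in all 6 fits without a library, up to 0.00415. SNEB 1 wkpp libraries had 469, 630.2 and 295, above MNEB by 1.62 (SE 0.37, adjusted p = 0.0233). At 16 wkpp the MNEB libraries had 139.9, 255 and 328 and the SNEB libraries 1543, 1341 and 448, a difference of 2.26 (SE 0.51) with adjusted p of 0.0139 and 0.0446. SNEB library c lay nearer to MNEB than to its own group.

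CCL26, another CCR3 ligand, had counts of 288, 241 and 266 at -4 wkpp against 18.8, 116 and 73.5 in MNEB 1 wkpp. The log2 fold change was 2.76 (SE 0.51), with limma adjusted p of 0.00285 on exonic reads and 0.0432 on the entire gene. MNEB 1 wkpp library a was far below its group, and without it the log2 fold change was 1.49, the lowest of the 6 fits, with an exonic adjusted p of 0.0129, which was 0.0111 without -4 wkpp library a. MNEB 16 wkpp libraries had 83.2, 177 and 393, SNEB 1 wkpp libraries 287, 397 and 118 and SNEB 16 wkpp libraries 216, 366 and 154. On exonic reads SNEB exceeded MNEB in every library at 1 wkpp by 2.57 (SE 0.77, adjusted p = 0.0558), the closest libraries having 118 and 116. On the entire gene these groups overlapped, SNEB library c at 114 lying below MNEB library b at 133. At 16 wkpp the groups overlapped (0.64, SE 0.50, adjusted p = 0.387). Mast cell markers, 4 of 7 measured, summed to between 2880.9 and 4516.5 at -4 wkpp, between 278.1 and 437 in MNEB 1 wkpp and between 1138.8 and 3176.8 in SNEB 1 wkpp, and their part in these differences was not tested.

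CCL2, the main monocyte attractant through CCR2, had counts of 71.4, 100.2 and 78.4 at -4 wkpp and of 22.9, 32.4 and 11.0 in MNEB 1 wkpp. All MNEB 1 wkpp libraries were lower, with a log2 fold change of 1.87 (SE 0.52) and a limma adjusted p of 0.0224, and 0.217 on the entire gene. MNEB 16 wkpp libraries had 155, 77.1 and 141, each above each MNEB 1 wkpp library. The difference of 1 over 16 wkpp in MNEB cows was the member difference with the smallest p of that comparison, -2.47 (SE 0.53, adjusted p = 0.245), and did not pass. SNEB libraries had 68.1, 323 and 32.0 at 1 wkpp and 125, 32.5 and 96.8 at 16 wkpp. At 16 wkpp they overlapped the MNEB values, and the difference was -0.77 (SE 0.52, adjusted p = 0.315).

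CCL5, a T cell attractant, had at most 15.6 normalised counts in every library outside SNEB 16 wkpp, where it had 10.9, 65.5 and 58.7. MNEB 16 wkpp libraries had 2.93, 5.14 and 2.71, from 3, 2 and 1 reads, so the difference of 2.97 (SE 1.25, limma adjusted p = 0.124) rested on few reads. For 1 over 16 wkpp in SNEB cows it was -2.16 (SE 0.94, adjusted p = 0.703). CCL11 and CCL20 had 9 and 4 exonic reads in all and were not tested on them. Of the 7 tested ligands of this role, 4 were higher and 3 lower at -4 wkpp than in MNEB 1 wkpp, from -1.41 to 2.76, and 5 were higher in SNEB than in MNEB at 16 wkpp, from -0.77 to 2.97.

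Several ligands were at their highest in SNEB 1 wkpp library b. CCL3, CCL8 and CCL22, named here after their values were seen, had 67.7, 87.9 and 48.7 normalised counts there. In libraries a and c of that group CCL3 had 0.54 and 0, CCL8 had 11.9 and 10.5, and CCL22 had 2.16 and 0. CCL22, a ligand of CCR4, also had 13.8, 30.6 and 21.5 at -4 wkpp, above the 2.09, 10.8 and 3.67 of MNEB 1 wkpp in every library (2.19, SE 0.95, limma adjusted p = 0.119). On the entire gene these groups overlapped, with up to 33.9 at -4 wkpp and 39.5 in MNEB 1 wkpp library b (1.46, adjusted p = 0.531). Over the 32 members with a library at 10 or more in SNEB 1 wkpp, library b was at least 2-fold above both others for 12, CCL2, CCL5, CCR1, CCR2, CCR7 and CXCL10 among them, beside 5.91% of all genes at that level, and libraries a and c for none. Its sums were also the highest of its group for 6 of the 11 marker lists, macrophage (27804.4), T cell (822.7), B cell (1050.5), mast cell (3176.8), skeletal muscle (302.8) and keratinocyte and hair (793.6). SNEB 16 wkpp library c was as far above both others for 8 of 34 members, CCR1, CCR2 and CX3CR1 among them, beside 3.16% of all genes.

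**Figure D4:**
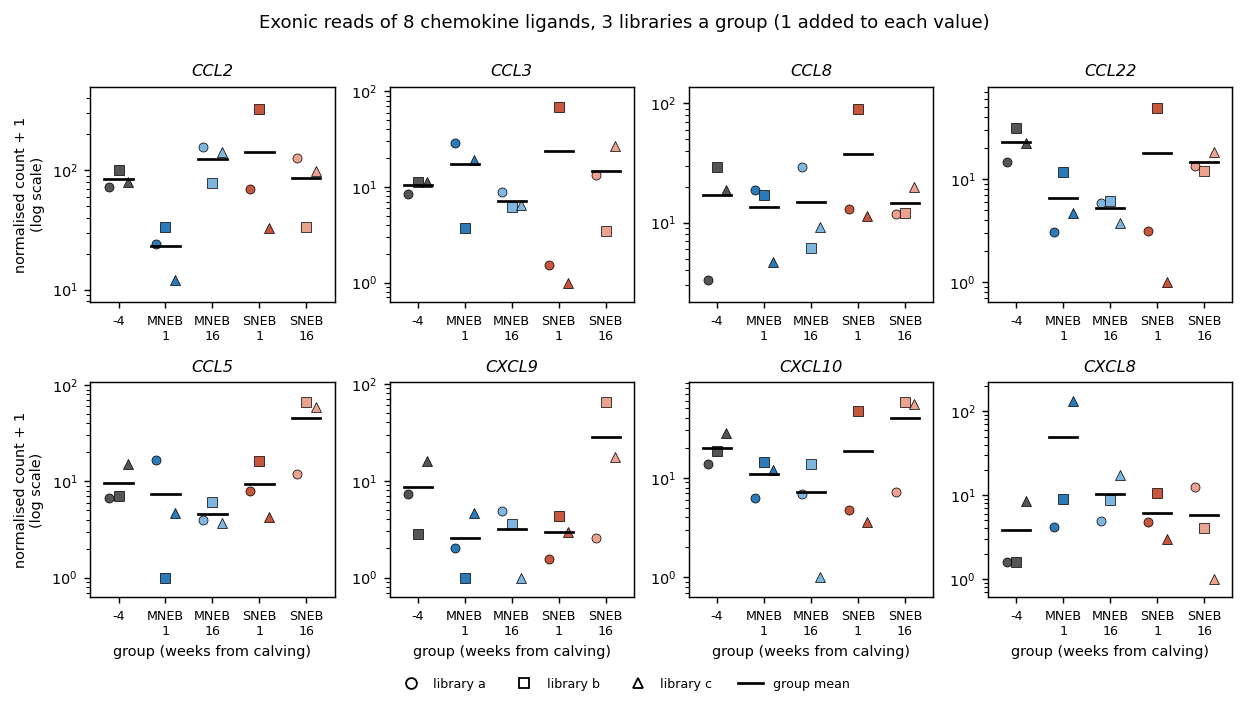
Exonic normalised count plus 1 (log scale) of CCL2, CCL3, CCL8, CCL22, CCL5, CXCL9, CXCL10 and CXCL8 in the 15 libraries, by group on the x axis, with a symbol per library and a bar at the group mean. SNEB 1 wkpp library b is the highest of its group for all 8 ligands, with 67.7 counts of CCL3 against 0.54 and 0 in the other two.

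Of the neutrophil-recruiting CXC ligands, CXCL3, a CXCR2 ligand, was the one with many reads. Its counts were 68.5, 230.4 and 107 at -4 wkpp, 309, 473 and 404 in MNEB 1 wkpp and 279, 337 and 428 in SNEB 1 wkpp. No -4 wkpp library reached any library at 1 wkpp on exonic reads, while on the entire gene -4 wkpp library b, at 425, lay above 2 MNEB 1 wkpp libraries, at 411 and 417. The log2 fold change was -1.65 (SE 0.40, limma adjusted p = 0.0128) against MNEB and -1.51 (SE 0.38, adjusted p = 0.096) against SNEB, the latter the smallest p of any member in that comparison, and neither passed. Against MNEB 1 wkpp CXCL3 was called, as lower at -4 wkpp, with library quality weights, and passed on exonic reads without -4 wkpp library b. On the entire gene the adjusted p were 0.193 and 0.19. The -4 wkpp libraries enter both comparisons.

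CXCL3 counts were 686, 507 and 265 in MNEB 16 wkpp and 284, 365 and 95.5 in SNEB 16 wkpp, with overlap and a difference of -1.14 (SE 0.49, limma adjusted p = 0.134). The role had 4 tested members, of which 3 were lower at -4 wkpp than in MNEB 1 wkpp with a median of -1.91, and 4 were lower in SNEB than in MNEB at 16 wkpp with a median of -1.01. CXCL8, chosen after its values were seen, had 3.13, 8.10 and 132 normalised counts in MNEB 1 wkpp, so that its group mean came from library c. That library also had the highest sums of its group for 7 of the 11 marker lists, keratinocyte and hair (735 against 61.5 and 270.0), erythrocyte (342 against 17.7 and 43.2), skeletal muscle (4083.6 against 1172.9 and 1709.2), neutrophil, T cell, B cell and mast cell. Their part in the CXCL8 value was not tested. The 6 measured neutrophil markers summed to between 128.9 and 143.9 at -4 wkpp, between 21.6 and 69.8 in MNEB 1 wkpp and between 113.6 and 496.2 in SNEB 1 wkpp. The near-identical sequences of CXCL2 and CXCL3 could have split reads between them.

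The interferon-induced ligands CXCL9, CXCL10 and CXCL11, which recruit activated T cells through CXCR3, had few reads. CXCL10 had 12.7, 17.7 and 27.1 normalised counts at -4 wkpp, 5.21, 13.5 and 11.0 in MNEB 1 wkpp and 5.87, 12.9 and 0 in MNEB 16 wkpp. SNEB libraries had 3.78, 45.9 and 2.61 at 1 wkpp and 6.23, 56.3 and 54.9 at 16 wkpp, so that SNEB libraries overlapped the others at both times. At 16 wkpp the difference between SNEB and MNEB was 2.29 (SE 1.44, limma adjusted p = 0.287). CXCL11 had 6, 6 and 9 reads at -4 wkpp and 0, 1 and 0 in SNEB 1 wkpp, with an adjusted p of 0.131 on exonic and 0.302 on entire gene reads. All 3 ligands had lower values at 1 than at 16 wkpp in SNEB cows, and none passed.

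Of the homeostatic CC ligands, CCL14, a ligand of CCR1 that circulates in plasma, had counts of 273, 417 and 352 at -4 wkpp, 483, 335 and 334 in MNEB 1 wkpp and 438, 444 and 294 in SNEB 1 wkpp, all overlapping. At 16 wkpp MNEB libraries had 272, 113 and 159.8, and SNEB libraries had 459, 438 and 411. On exonic reads the MNEB 16 wkpp libraries were below all others, the closest being MNEB library a at 271.95 and -4 wkpp library a at 272.75. On the entire gene MNEB 16 wkpp library a, at 343, lay above -4 wkpp library a, at 292, and SNEB 1 wkpp library c, at 317. The log2 fold change of SNEB over MNEB at 16 wkpp was 1.19 (SE 0.28), with limma adjusted p of 0.0153 and 0.109 on exonic and entire gene reads. In MNEB cows the value was higher at 1 than at 16 wkpp by 1.07 (SE 0.34, adjusted p = 0.324). Its interaction, 1 over 16 wkpp in SNEB minus that in MNEB, was -1.23 (SE 0.40). The unadjusted p of 0.00853 was the smallest of the members, with an adjusted p of 0.982. All 5 ligands of this role were higher in SNEB than in MNEB at 16 wkpp, from 0.25 to 1.38.

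CC receptors, which are carried by monocytes, macrophages, eosinophils and lymphocytes, had positive differences for 9 of 9 tested at -4 wkpp against MNEB 1 wkpp, with a median of 1.26, and none was called. In the same comparison 9 of 10 macrophage markers (median 0.77), 13 of 15 T cell markers (median 0.7) and 2 of 5 B cell markers (median -0.2) were higher at -4 wkpp. Between SNEB and MNEB the CC receptors were higher in SNEB for 8 of 9 at 1 wkpp, with a median of 1.37, and for 7 of 9 at 16 wkpp, with a median of 0.76. All 10 macrophage markers were also higher in SNEB at 1 wkpp, by a median of 1.67, and summed to between 12570.8 and 27804.4 in SNEB and between 2835.2 and 11085.5 in MNEB, and their part in the receptor values was not tested. CCR1, found on monocytes and macrophages, had counts of 191, 156 and 189.6 at -4 wkpp, 196, 27.0 and 51.4 in MNEB 1 wkpp and 40.1, 69.4 and 92.1 in MNEB 16 wkpp. SNEB libraries had 198, 435 and 142 at 1 wkpp and 298, 186 and 678 at 16 wkpp. At 16 wkpp all SNEB libraries exceeded all MNEB libraries, by 2.56 (SE 0.66), with limma adjusted p of 0.024 and 0.0847.

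CCR6, a receptor of B and T cells, had 8.06, 7.94 and 12.1 counts at -4 wkpp and 31.9, 11.8 and 20.9 in SNEB 1 wkpp, with a difference of -1.12 (SE 0.55, limma adjusted p = 0.412). MNEB libraries had 14.6, 0 and 0 counts of CCR6 at 1 wkpp and 2.93, 7.71 and 5.42 at 16 wkpp, and SNEB 16 wkpp libraries had 9.35, 5.51 and 12.9. The 5 measured B cell markers summed to between 525.5 and 1248.4 at -4 wkpp and between 371.9 and 1050.5 in SNEB 1 wkpp, in overlap. They summed to between 305.1 and 422.3 in MNEB 1 wkpp, and at 16 wkpp to between 1072.3 and 3684.4 in MNEB and between 656.8 and 799.8 in SNEB, where MNEB was higher without overlap. Their part in the CCR6 values was not tested.

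Of the CXC, CX3C and XC receptors, CXCR4, the signalling receptor of CXCL12, had counts of 93.2, 28.7 and 87.8 at -4 wkpp, 55.3, 24.3 and 69.8 in MNEB 1 wkpp and 89.2, 63.8 and 77.1 in SNEB 1 wkpp, with overlap throughout. At 16 wkpp MNEB libraries had 35.2, 36.0 and 16.3 and SNEB libraries had 54.6, 47.8 and 121, which did not overlap (1.16, SE 0.56, limma adjusted p = 0.168). CXCR3, the receptor of the interferon-induced ligands, had 1, 2 and 1 reads in SNEB 1 wkpp and 8, 7 and 8 in SNEB 16 wkpp, and its adjusted p was 0.703. All 7 tested receptors of this role were higher in SNEB at 16 wkpp, from 0.64 to 2.03, and all 6 tested were higher at -4 wkpp than in MNEB 1 wkpp, from 0.23 to 2.41. None was called. The 15 T cell and cytotoxic lymphocyte markers summed to between 223 and 341.2 in MNEB and between 374.6 and 1007.9 in SNEB at 16 wkpp, with 14 of 15 higher in SNEB, and their part in the receptor values was not tested.

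Exonic and entire gene reads gave like differences for most members. The signs were the same for 37 of 41 members between -4 wkpp and MNEB 1 wkpp and for 43 of 43 between SNEB and MNEB at 16 wkpp. The smallest adjusted p among the members was 0.000388 on exonic reads and 0.0172 on the entire gene in the first comparison, and 0.00201 and 0.00903 in the second. The exonic share of a member's entire gene reads was 12.9% for CCL25, 20.9% for CCR9 and 36.4% for CCR7, whose entire gene value is therefore mainly from outside exons. It was between 10.8% and 16.0% for CCL28, CXCL17, XCL1 and CCL20, which had between 3 and 21 exonic reads. CXCR5 had 17 exonic reads and none in the entire gene count, so that it could not be called.

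**Figure D5:**
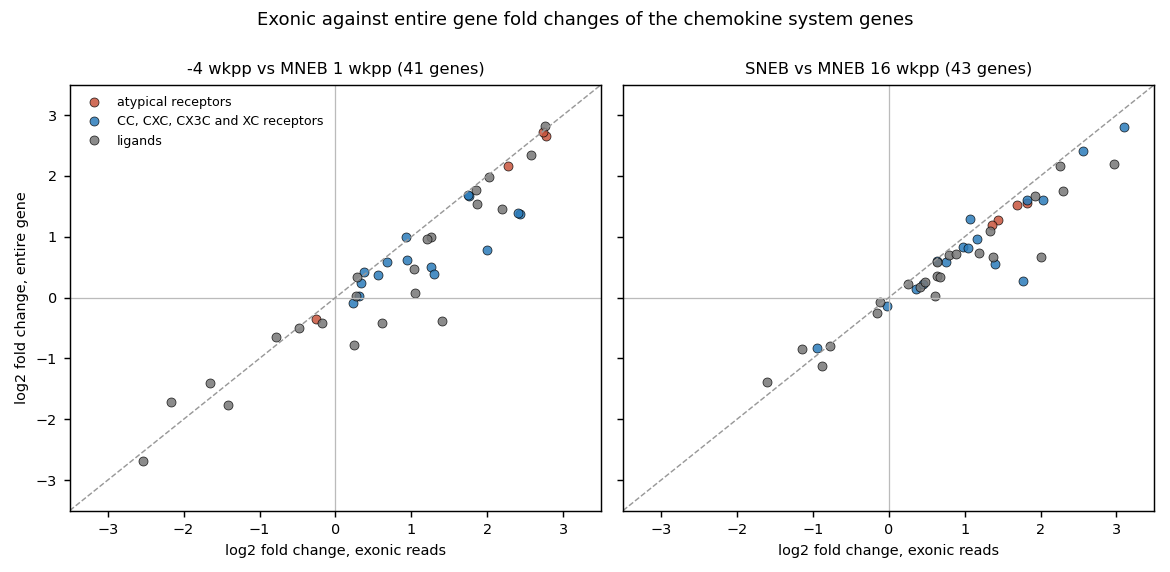
Log2 fold change from reads of the entire gene (y axis) against that from exonic reads (x axis) for the members tested on both, between -4 wkpp and MNEB 1 wkpp (left, 41 genes) and between SNEB and MNEB at 16 wkpp (right, 43 genes), coloured by role, with the line of equality dashed. In the right panel every member lies on the same side of 0 on both axes.

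Genes of the pathway outside the name pattern covered G protein subunits, receptor kinases, arrestins, RGS proteins and downstream effectors, of which 31 of 43 listed were in the tables. Between -4 wkpp and MNEB 1 wkpp, 31 were tested and 1 was called, beside 0.572% of all genes. It was GNG2, a G protein gamma subunit, higher at -4 wkpp by 1.63 (SE 0.26, limma adjusted p = 0.00132, and 0.00947 on the entire gene). On exonic reads alone 5 were higher and 4 lower at -4 wkpp, beside 13.7% of all genes. Those lower included the receptor kinases GRK5 (-1.62, adjusted p = 0.000516) and ADRBK1 (-1.46, adjusted p = 0.00101). The higher ones included DPP4, a protease that trims chemokines (1.88, adjusted p = 0.00145), and RAC2, a GTPase of leukocyte migration (1.96, adjusted p = 0.00144). Between SNEB and MNEB 0 of 31 were called at 1 wkpp, with DPP4 alone below 0.01 on exonic reads (2.88, adjusted p = 0.00752), beside 0.825% of all genes. At 16 wkpp 0 of 30 were called, and on exonic reads 4 were higher in SNEB, including RAC2 (2.08, adjusted p = 0.00137), and 2 lower, including GRK5 (-1.43, adjusted p = 0.000912), beside 9.05% of all genes. In the other 3 comparisons none was called, and none passed on exonic reads.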

How the data were processed

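Total RNA of dewlap subcutaneous fat, 3 libraries per group, was made into stranded ribosomal RNA-depleted libraries and sequenced as single reads. Per the study's methods and the submitters' processing notes, the authors used bcl2fastq 2.15.0, cutadapt 1.3, TopHat2 on bosTau8, HTSeq and DESeq2, separately for exons and entire genes. The strand setting of HTSeq is not given in the sources used here. The deposited values used were the authors' mean of DESeq2-normalised counts over the 6 libraries of a comparison. The tables also hold the authors' fold changes, standard errors, statistics and p-values, which were not used, and 0 columns of other samples.

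Because the means carry 15 digits and are sums of whole reads over size factors, the reads of each library were recovered by lattice reduction (sympy 1.14.0), for 99.66% of 13896 genes on exons and 98.99% on entire genes, all 49 members included. On simulated data 99.69% of entries were resolved, all correctly. A library's group came from the tables it entered. Libraries could not be matched to sample numbers, and p-values measure the spread between 3 libraries. The study biopsied each animal at all times, so times may share cows, which could not be modelled.

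Each comparison was fitted alone with limma 3.58.1 (voom weights, R 4.3.3, two-sided) on genes with at least 10 reads, as log2 fold change of the first group over the second, adjusted by Benjamini-Hochberg over all genes tested. On data simulated for -4 wkpp against MNEB 1 wkpp (12594 genes), the fit called 10% of 2-fold and 86% of 4-fold changes on 1 kind of reads. For SNEB against MNEB at 16 wkpp (11645 genes) it called 5% and 81%. Only genes above a minimum mean were changed, with the same simulated spread for every gene, so these rates do not describe members with few reads. Normalised counts printed use size factors over the 15 libraries. The alternatives were exonic or entire gene reads alone, other thresholds, scaling, filters, limma-trend with pseudocounts 0.5 and 2, library quality weights, all libraries in 1 fit, each library left out and, added after seeing the data, the MNEB libraries under 3000000 reads left out.

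Named genes were those called, the 5 uncalled with the smallest exonic p in each comparison, and the member of each role with the highest mean exonic normalised count, which is no order of level since gene length was not corrected. Members, roles, marker lists and pathway genes were chosen with earlier results of these data known. Sample titles carry the codes m1 or m2 by group, whose meaning is not stated, so they cannot be told apart from the groups. The values of 1 member are not reported here by name. Gene sequences were not used here.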

Additional observations from a re-analysis of the deposited data

How the results depend on the processing

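Between -4 wkpp and MNEB 1 wkpp, where no member was called, 7 were on exonic reads alone, 6 at an adjusted p below 0.05, 7 with library quality weights (CXCL3, lower at -4 wkpp, in and CCL26 out against the exonic set) and 3 with all 15 libraries in 1 fit. Over all genes the same 4 settings called 1669, 933, 1533 and 984. Quality weights called 1 member, ACKR3, between SNEB and MNEB at 1 wkpp, beside 796 of all genes. Between SNEB and MNEB at 16 wkpp, where ACKR3 alone was called, 2 members (ACKR1 and ACKR3) were called on exonic reads alone (1056 of all genes), with limma-trend at either pseudocount (415 and 407 of all genes) and with quality weights (405 of all genes), and 3 at an adjusted p below 0.05 (1216 of all genes). It was 0 with scaling by total reads, without a filter on low counts, with all 15 libraries in 1 fit, without the MNEB libraries under 3000000 reads (an alternative added after seeing the data) and, from 0 to 0, without each library in turn. The entire gene adjusted p of ACKR3 was 0.0126, 0.0124, 0.0165 and 0.149 in the first 4 of these, and its exonic log2 fold change 1.59 without the shallow libraries. The other 4 counts of members called were 0 in every alternative. No difference changed sign among the 9 member differences followed through the alternatives.

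Over all genes, the calls between -4 wkpp and MNEB 1 wkpp went from 68, with 75.0% higher at -4 wkpp, to 116 with 58.6% higher when scaled by total reads, and from 0 to 124 without each library in turn, the highest without MNEB 1 wkpp library a. They were 1533 with quality weights, 984 with all 15 libraries in 1 fit, 933 at an adjusted p below 0.05, 32 without a filter, 161 with at least 60 reads, 176 and 173 with limma-trend and 0 without the shallow MNEB libraries. Between -4 wkpp and SNEB 1 wkpp they went from 3 to 278 with quality weights and to 50 at an adjusted p below 0.05, and from 0 to 64 without each library. For SNEB against MNEB at 1 wkpp they went from 0 to 796 with quality weights, to 277 with all 15 libraries and to 691 without MNEB 1 wkpp library a. At 16 wkpp they went from 337 to 1216 at an adjusted p below 0.05, to between 29 and 105 without each library and to 0 without the shallow MNEB libraries. The cause was not tested. Leaving out the shallow MNEB libraries left 1 MNEB library, assumed to vary like the other group, so these losses say little about stability. Against it, the log2 fold changes at -4 wkpp of CXCL12, CXCL14, ACKR4 and CCL26 were 0.70, 2.63, 3.45 and 3.77. On exonic reads alone, between 3 and 6 members passed between -4 wkpp and MNEB 1 wkpp without each library in turn, beside between 680 and 1793 of all genes. The 3 were without -4 wkpp library a, where 680 of all genes passed. Scaling by total reads changed the sign of CCL5 between -4 wkpp and SNEB 1 wkpp and of CXCL16 in SNEB cows from 1 to 16 wkpp.

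The low-depth alternative was not run for MNEB cows from 1 to 16 wkpp, since 1 library per time leaves no estimate of the spread. With 3 libraries a group, changes of 2-fold were mostly missed in simulated data, where no gene with few reads was changed. Members with under 10 reads were not tested. No paired analysis was possible because the recovered libraries carry no sample or cow number and the labels share none between groups.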
